A study of Mus musculus with 2 samples.

Results

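Coq10b, Neurl3 and Fhl2 were 3 of the 1068 genes analysed in single LβT2 cells exposed briefly to gonadotropin-releasing hormone (GnRH). They were chosen by their measured values, as the genes with the largest ratios of GnRH over vehicle after Btg2 among genes with at least 100 transcript counts, and their differences between the libraries are therefore given as a description. LβT2 is an immortalised mouse line derived from pituitary gonadotropes, the cells that secrete luteinising and follicle-stimulating hormone. Cells of passage 15, grown in 12-well plates, were exposed for 40 min to GnRH at 2 nM or to vehicle alone before droplet-based 3′ single-cell RNA-seq, in which a unique molecular identifier (UMI) marks each captured transcript so that its PCR copies count once. There was 1 library for each treatment, no replicate and no other time point. The vehicle library held 1992 cells and the GnRH library 1889.

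GnRH binds a Gq-coupled receptor on gonadotropes, and the resulting protein kinase C, calcium and MAP kinase signals switch on early response genes within minutes, without new protein synthesis. Many of these genes encode transcription factors, and others encode regulators of proliferation and signalling, such as Btg2, an antiproliferative cofactor of mRNA decay. Coq10b encodes a mitochondrial START-domain protein that binds coenzyme Q and is needed for its function in respiration. Neurl3 encodes a RING-type E3 ubiquitin ligase of the neuralized family. Fhl2 encodes a protein made of LIM domains that acts as a scaffold and as a transcriptional cofactor.

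The analysed genes gave 1126320 UMIs in the vehicle library, with a median of 543.5 per cell, and 1118763 in the GnRH library, with a median of 561. Of the 1068 genes, 1062 had a position in the annotation, in every case on chromosome 1. None of 5 gonadotrope markers was among the genes analysed, so the identity of the cells was not checked here. Of 15 markers of gonadotropes and other cell types, 2 were among the genes analysed, the fibroblast collagens Col3a1 and Col5a2, and both had 0 UMIs in each library. Cells were numbered rather than named by barcode, so barcodes shared between the libraries could not be counted.

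Promoter sequences are shown first, because GnRH signals reach early response genes through short elements near their start sites. The choice of the 3 genes fixed their common direction, which is therefore no reason to look for shared elements. Each run holds the 250 bases before and the 50 bases from the RefSeq start site on the coding strand in GRCm38.p6. Capitals mark the core of the cyclic AMP response element (CRE), TGACG or its reverse complement CGTCA, and the CArG box to which serum response factor binds. Fhl2 has a pair of RefSeq start sites. For both Neurl3 and Fhl2, the gene as annotated in GENCODE extends upstream of the starts shown.
Coq10b (chr1:55052520-55052819, plus strand): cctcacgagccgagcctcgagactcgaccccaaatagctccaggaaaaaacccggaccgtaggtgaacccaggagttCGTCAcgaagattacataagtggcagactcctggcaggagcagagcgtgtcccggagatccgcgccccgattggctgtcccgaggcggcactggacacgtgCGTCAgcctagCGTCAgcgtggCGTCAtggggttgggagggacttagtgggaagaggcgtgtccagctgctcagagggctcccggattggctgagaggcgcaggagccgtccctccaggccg
Neurl3 (chr1:36273376-36273675, minus strand): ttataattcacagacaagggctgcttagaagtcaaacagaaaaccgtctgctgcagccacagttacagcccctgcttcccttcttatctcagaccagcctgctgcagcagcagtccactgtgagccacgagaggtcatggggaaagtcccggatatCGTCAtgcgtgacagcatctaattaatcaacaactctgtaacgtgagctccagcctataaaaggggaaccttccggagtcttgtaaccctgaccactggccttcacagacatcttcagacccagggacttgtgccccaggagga
Fhl2 promoter 1 (chr1:43196712-43197011, minus strand): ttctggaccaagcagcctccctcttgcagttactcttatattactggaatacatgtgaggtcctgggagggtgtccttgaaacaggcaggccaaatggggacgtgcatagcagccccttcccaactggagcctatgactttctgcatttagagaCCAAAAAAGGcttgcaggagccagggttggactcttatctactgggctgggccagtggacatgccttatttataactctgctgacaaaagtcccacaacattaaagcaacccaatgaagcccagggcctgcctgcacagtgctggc
Fhl2 promoter 2 (chr1:43163912-43164211, minus strand): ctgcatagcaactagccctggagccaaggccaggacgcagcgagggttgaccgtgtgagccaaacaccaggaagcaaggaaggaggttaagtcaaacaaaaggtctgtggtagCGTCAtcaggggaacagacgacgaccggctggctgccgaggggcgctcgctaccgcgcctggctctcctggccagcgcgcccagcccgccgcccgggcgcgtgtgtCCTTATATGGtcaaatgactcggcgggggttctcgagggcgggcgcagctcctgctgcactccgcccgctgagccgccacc

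The CRE core occurred 4 times in the Coq10b promoter, beginning at bases -173, -72, -61 and -50 with the start site counted as 0, once in that of Neurl3 (-94), and once in Fhl2 promoter 2 (-137). Each Fhl2 promoter held 1 CArG box, at -96 in promoter 1 and at -31 in promoter 2. Of 32851 RefSeq mouse promoters of the same length, 20.8% held the CRE core on either strand, 1.03% held it at least 3 times and 1.63% held a CArG box. The full CRE, TGACGTCA (1.79% of promoters), the AP-1 element TGANTCA (7.81%) and the EGR element GCGNGGGCG (5.55%) were not among the letters of the 4 windows on either strand. The full CRE contains the core, so these counts overlap. These matches describe the letters of the windows and not binding, and a 3′ assay does not tell which Fhl2 start site was in use.

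The transcripts of all 3 genes were more abundant in the GnRH library. Coq10b (ENSMUSG00000025981, chr1:55052770-55072702 in GRCm38, plus strand) was the most abundant of them, with 709 UMIs in vehicle cells and 3355 in GnRH cells, a 4.76-fold difference after scaling to the total of the analysed genes (95% interval 4.39 to 5.17). Neurl3 (ENSMUSG00000047180, chr1:36264597-36274679, minus strand) was almost silent in vehicle cells, with 13 UMIs against 110, an 8.52-fold difference with a wide interval of 4.78 to 16.5. Fhl2 (ENSMUSG00000008136, chr1:43123074-43196984, minus strand) had 207 and 723 UMIs, a 3.52-fold difference (3.01 to 4.12). The intervals cover counting error only, and with 1 library per treatment no difference has a replicate check. An effect of treatment and a difference between libraries cannot be told apart.

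In counts scaled to the UMI total of the analysed genes (CPM, counts per 1000000 UMIs), Coq10b stood at 629 and 2999, Fhl2 at 184 and 646, and Neurl3 at 11.5 and 98.3. The order of abundance was thus the same in both libraries, and the Poisson intervals of the 3 genes did not overlap within either one. Neurl3 in GnRH cells (interval 80.8 to 119) remained below Fhl2 in vehicle cells (160 to 211). A 3′ assay counts each transcript once regardless of its length. Coq10b overlaps the processed pseudogene Gm17971 on its own strand and a transcript on the other strand, and Fhl2 overlaps the pseudogene Gm8210 on the other strand. Whether counting used strand is not given in the sources used here, so reads of these loci could have been shared or lost, whereas Neurl3 overlaps no annotated gene.

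**Figure D1:**
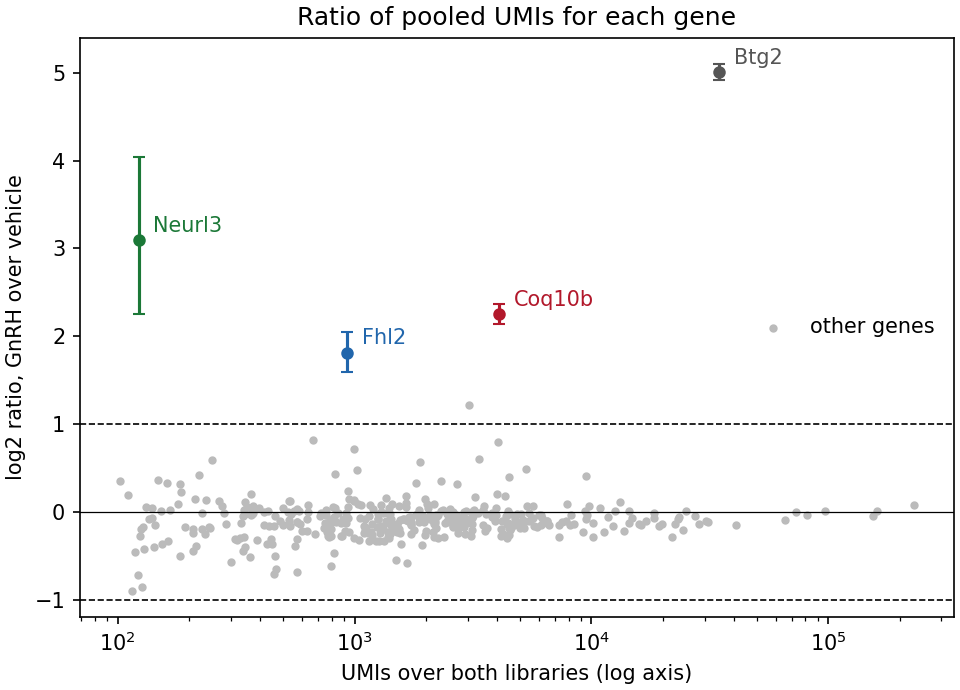
Log2 ratio of GnRH over vehicle (vertical axis) against UMIs over both libraries (horizontal log axis) for the 409 genes with at least 100 UMIs. Bars are 95% counting intervals and dashed lines mark 2-fold. Neurl3, Coq10b and Fhl2 stand apart from the grey points, below Btg2 and above Ptprn, the only grey point over the upper dashed line.

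Of the 409 genes with at least 100 UMIs over both libraries, 5 (1.22%) reached a 2-fold excess in GnRH cells and 0 a 2-fold deficit, with a median log2 ratio of -0.09. The 3 genes are among those 5 by the way they were chosen. Neurl3, with 13 vehicle and 110 GnRH UMIs, also reached the minimum of UMIs only through its count in GnRH cells. The values next to the 2-fold line were those of Ptprn, a secretory granule membrane protein, at a log2 ratio of 1.22 just inside it, and of 2810459M11Rik at 0.82 just outside. Btg2, at 5.01, was the highest. On the same scale Neurl3 was at 3.09, Coq10b at 2.25 and Fhl2 at 1.81.

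Ratios of the genes lying closest to the 3 loci were near 0. Of the 6 nearest genes with at least 20 UMIs around each locus, 18 in all, 0 were 2-fold higher or lower, beside 10 of 467 (2.14%) of all genes with that many UMIs, and against that share a count of 0 in 18 is no result about these loci. Hspd1, which encodes the mitochondrial chaperonin HSP60 and lies 5.13 kb from Coq10b, had a log2 ratio of 0.04 (interval -0.01 to 0.10). Arid5a, which encodes an RNA-binding protein and lies 33.1 kb from Neurl3, had 76 UMIs in each library. The gene nearest to Fhl2, AI597479 at 7.13 kb, had a log2 ratio of 0.12 (-0.13 to 0.38). Ratios ranged from -0.28 to 0.17 around Coq10b, from -0.12 to 0.18 around Neurl3 and from -0.42 to 0.12 around Fhl2.

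Lists of genes with related functions were read beside the 1.22% of all tested genes that were 2-fold higher, the 0% that were 2-fold lower and the median of -0.09, and with so few members a count of 0 says little about a list. Of 6 other genes on the list of early response genes with at least 100 UMIs, 1 was 2-fold higher (Btg2). Per2, a circadian clock repressor, and Klf7, a Krüppel-like transcription factor, had log2 ratios of 0.44 and 0.41. The remaining members, Arid5a, Elk4 and Creb1, were at 0.01, -0.08 and -0.10. The list median of 0.21 thus lay between raised members and members near 0. Of 7 genes of the respiratory chain and mitochondrial protein folding, 0 were 2-fold higher or lower, with a median of -0.06. The lowest was Bcs1l, an assembly factor of respiratory complex III, with a log2 ratio of -0.55. Of 8 other genes of ubiquitin conjugation, ligases and adaptors, 0 passed the 2-fold line (median -0.09), and Cul3, a cullin scaffold, was at -0.02. The list as first drawn up also held Mgat5, which encodes a glycosyltransferase and was left out of this count after its value was seen. With it the count was 0 of 9 and the median was again -0.09. On a list of LIM-domain and actin-linked genes, the 4 others with at least 100 UMIs were Actr3 and Arpc2, subunits of the actin-nucleating Arp2/3 complex, Tns1, a focal adhesion protein, and Fn1, which encodes the secreted matrix protein fibronectin. None of these encodes a LIM-domain protein, 0 passed the 2-fold line, and their ratios ran from -0.16 in Tns1 to 0.16 in Fn1 (median 0.05).

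Detection was measured as the share of cells with at least 1 UMI, which depends on capture as well as on expression. Coq10b was detected in 563 of the 1992 vehicle cells, or 28.3% (exact binomial interval 26.3 to 30.3), and in 1369 of the 1889 GnRH cells, or 72.5% (70.4 to 74.5). Fhl2 was detected in 185 vehicle cells, or 9.29% (8.05 to 10.6), and in 515 GnRH cells, or 27.3% (25.3 to 29.3). Neurl3 was detected in 12 vehicle cells, or 0.602% (0.312 to 1.05), and in 96 GnRH cells, or 5.08% (4.14 to 6.17). Coq10b was thus detected in a minority of vehicle cells and in most GnRH cells, whereas Neurl3 was seen in few cells of either library. These shares are not numbers of expressing cells. With 1 level in all cells, Coq10b would be missed in 70.8% of vehicle cells, against 71.7% observed. In GnRH cells it would be missed in 20.5%, against 27.5% observed. Free RNA in droplets can give UMIs in cells that do not express a gene, and with a single cell line no cell type that lacks these genes was at hand to measure that background.

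Since deeper cells show more genes, each cell was also reduced to 300 UMIs, which left 1773 vehicle and 1781 GnRH cells. The expected shares were then 16.9% and 54.3% for Coq10b, 5.18% and 16.2% for Fhl2, and 0.267% and 2.58% for Neurl3. All shares were lower at this depth, and each remained higher in the GnRH library. The same held when cells were divided into 3 groups of similar number by their UMI total. The Coq10b share went from 17.3% to 56.8% in the shallowest group, from 29.9% to 74.2% in the middle group and from 39.0% to 84.6% in the deepest group. The corresponding log2 ratios were 2.39, 2.31 and 2.15 for Coq10b, and 1.55, 1.61 and 2.06 for Fhl2. Those of Neurl3, 2.02, 3.95 and 3.30, rested on 5, 2 and 6 vehicle UMIs, and their intervals overlapped.

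**Figure D2:**
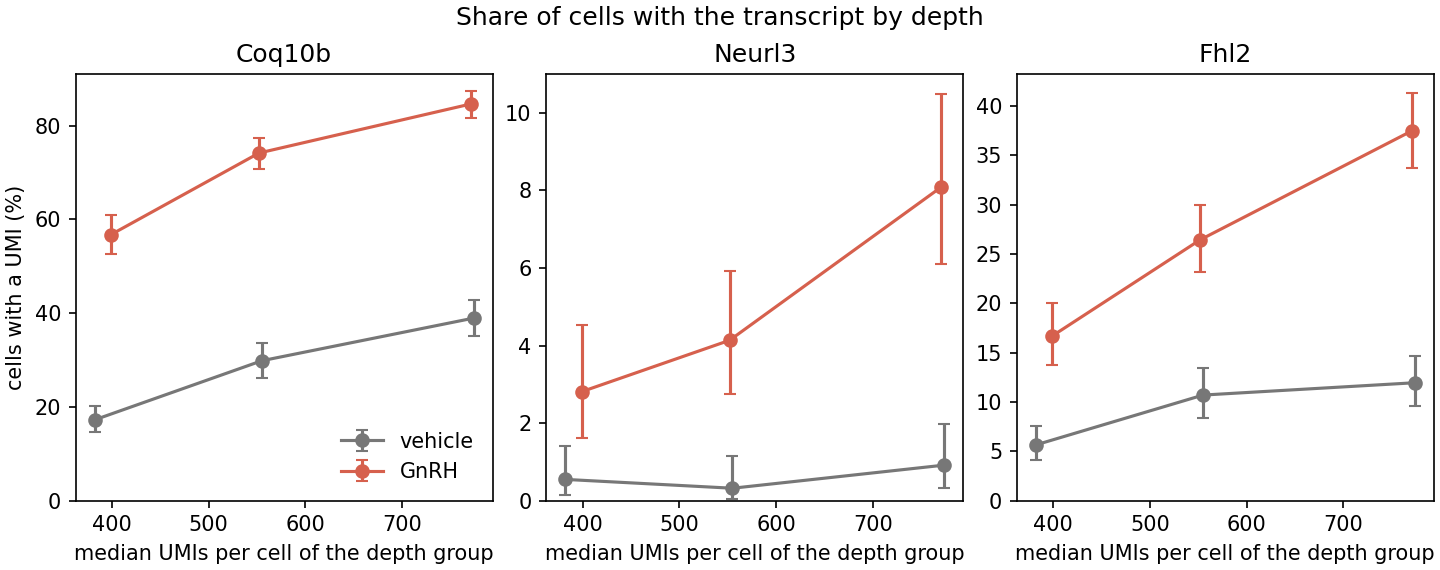
Share of cells with at least 1 UMI (vertical axis, percent, a different range in each panel) against the median UMI total of the depth group (horizontal axis), for vehicle (grey) and GnRH (red) cells. Bars are exact 95% binomial intervals. In every depth group the GnRH share lies above the vehicle share, for Coq10b from 56.8% to 84.6% against 17.3% to 39.0%.

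In all 3 genes the share of cells with the transcript differed more between the libraries than the mean in those cells, to different degrees. The maximum in a single cell went from 4 to 11 UMIs for Coq10b, from 3 to 6 for Fhl2 and from 2 to 3 for Neurl3. For Coq10b, the share of cells with the transcript was 2.56-fold higher and the mean in those cells 1.95-fold higher, at 1.26 UMIs in vehicle and 2.45 in GnRH cells. For Fhl2 the same quantities were 2.94-fold and 1.25-fold, with means of 1.12 and 1.40 UMIs. For Neurl3 they were 8.44-fold and 1.06-fold, with means of 1.08 and 1.15 UMIs. With 1 level in all cells of a library, the means in cells with the transcript would be 1.22 and 2.23 UMIs for Coq10b. They would be 1.06 and 1.23 for Fhl2, and 1.00 and 1.03 for Neurl3. Much of the contrast between the genes thus follows from their mean counts. At fewer than 1 transcript per cell on average, a graded rise also appears mainly as more cells with 1 UMI. That was the case for Fhl2 and Neurl3, and for Coq10b in vehicle cells. The form of the response was therefore examined against explicit expectations.

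Variation between cells was set against a Poisson expectation that takes account of how many UMIs each cell had, as the ratio of the squared coefficient of variation (CV) observed to that expected. In vehicle cells Coq10b was at 1.08 and Fhl2 at 1.11, close to the median gene at 1.07. In GnRH cells they were at 1.43 and 1.34, again beside a median of 1.07, and ranked 29 and 42 of 342 genes, against 150 and 113 of 344 in vehicle cells. A ratio of at least 1.5 was reached by 20 of 344 vehicle genes (5.81%) and 23 of 342 GnRH genes (6.73%). Coq10b and Fhl2 were below it in both libraries, which against those shares is no result about them. Coq10b passed that line, at 1.51, once the 5% of GnRH cells with most UMIs were left out. Neurl3, at 1.15 and 1.22, was below the mean of 0.1 UMI per cell required for ranking. Btg2 was at 1.95 and 3.59. For a given spread of levels this ratio is larger at a higher mean, and the means per cell were 0.356 and 1.78 UMIs for Coq10b and 0.104 and 0.383 for Fhl2.

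The excess lay at both ends of the distribution. With 1 level in all GnRH cells, 387 cells without Coq10b and 38.4 cells with at least 6 UMIs would be expected, whereas 520 and 76 were observed. The numbers of cells with 1, 2, 3, 4 and 5 UMIs were 502, 362, 190, 166 and 73. For Fhl2, 1374 GnRH cells had none against 1301 expected, and 12 had at least 4 UMIs against 2.22 expected. For Neurl3, 1793 cells had none against 1783 expected, and 12 cells had more than 1 UMI, 10 of them 2 UMIs and the other two 3 UMIs.

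A pair of models was then compared with these numbers. The graded model let the level vary continuously between cells with a gamma distribution, and the all-or-none model placed a part of the GnRH cells at the vehicle level and the rest at 1 raised level. For Coq10b, the single level misplaced 214 of the GnRH cells (11.3%), the all-or-none model 75.5 (3.99%) and the graded model 49.0 (2.59%). The all-or-none model expected 461 cells with 1 UMI and 247 with 3 UMIs where 502 and 190 were observed, and the graded model expected 511 and 221. At 4 UMIs the all-or-none model was the closer one, with 146 expected against 127 in the graded model and 166 observed. For Fhl2, the misplaced cells were 106 with a single level, 15.1 with the graded and 11.0 with the all-or-none model. For Neurl3 they were 19.0, 1.38 and 1.05. Graded and all-or-none forms thus differed by about 4 cells for Fhl2 and by less than 1 cell for Neurl3, and were not distinguishable at this depth. Neither class of the all-or-none model had a spread of levels here, although Coq10b had a fitted CV of 0.442 in vehicle cells. The smaller misfit of the graded model for Coq10b can therefore reflect spread present without GnRH, and does not decide the form of its response.

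**Figure D3:**
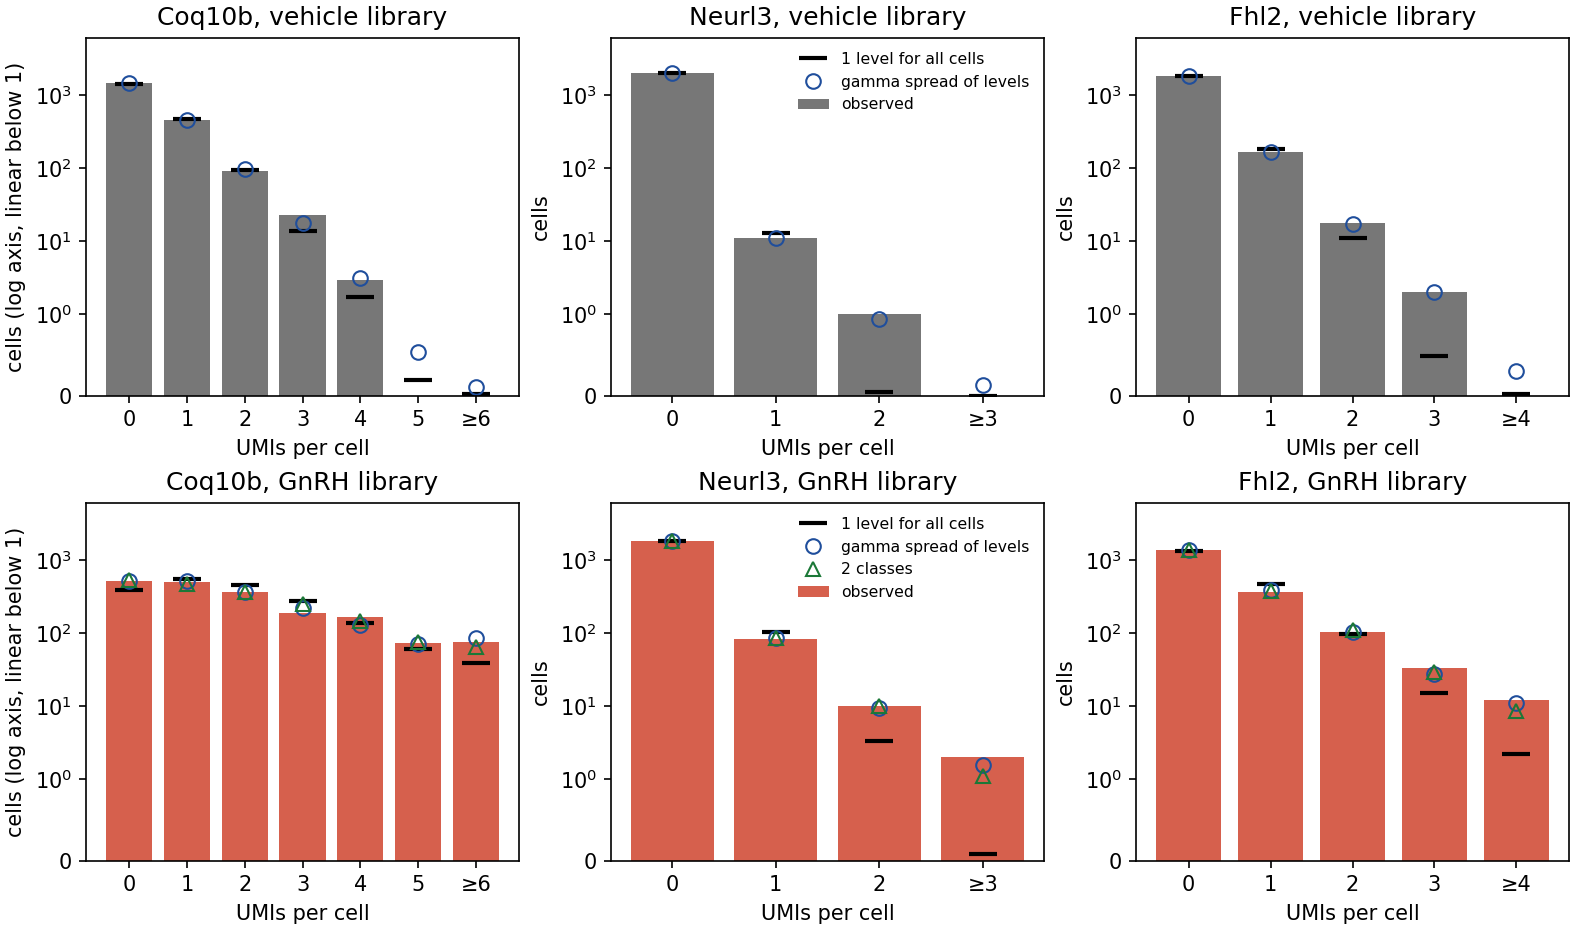
Number of cells (vertical axis, logarithmic above 1 and linear below) with each number of UMIs (horizontal axis) in the vehicle library (grey bars, top) and the GnRH library (red bars, bottom). Dashes, circles and triangles are the numbers expected with 1 level, a gamma spread of levels and 2 classes of cells. In GnRH cells the dashes fall below the Coq10b bars at 0 UMIs (387 against 520) and at 6 or more (38.4 against 76).

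The fitted spread of levels, after removal of counting error, had a CV of 0.442 in vehicle and 0.564 in GnRH cells for Coq10b. For Fhl2 it was 1.01 and 0.867. The level of Fhl2 thus varied no more widely between GnRH cells, relative to its mean, than between vehicle cells in this fit, although its variation over the Poisson expectation was larger. The values for Neurl3, 5.20 and 1.79, came from 13 and 110 UMIs and are not compared.

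Fitted as 2 classes, the GnRH cells at the vehicle level were 25.2% for Coq10b, 56.9% for Fhl2 and 78.7% for Neurl3. These shares hold only under that model, which takes the vehicle library as the level of cells without a response. Free RNA, which could raise the counts of such cells, was not measured, and for Btg2 the same model misplaced 599 of the GnRH cells. The raised class of Coq10b and Fhl2 then stood at 5.96 and 6.72 times the vehicle level, respectively.

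Co-detection was compared with the number of cells expected if the genes were independent given each cell's UMI total. At least 1 of the 3 transcripts was found in all but 1290 vehicle cells (64.8%) and 395 GnRH cells (20.9%). In GnRH cells, 1045 held 1 of the genes, 412 held 2 and 37 held all 3, and Coq10b was the only one in 924. The vehicle library had 56 cells with 2 of the genes and 1 with all 3.

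Coq10b and Fhl2 were found together in 400 GnRH cells where 398 were expected, a ratio of 1.01. Coq10b was thus seen in 77.7% of the 515 cells with Fhl2 (exact binomial interval 73.8 to 81.2), against 77.3% expected at their depth. In vehicle cells they were together in 55 against 59.1 expected, a ratio of 0.931. Joint detection of Coq10b and Fhl2 was therefore within counting error of independence in both libraries.

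Coq10b and Neurl3 were found together in 82 GnRH cells against 74.8 expected, a ratio of 1.10, where the ratio could not exceed 1.28 because Coq10b was already expected in most of the 96 cells with Neurl3. Coq10b was seen in 85.4% of those 96 cells (76.7 to 91.8), against 77.9% expected at their depth and 71.8% observed in the cells without Neurl3. With all cells reduced to 300 UMIs the ratio was 1.26, at a depth where Coq10b was seen in 54.3% of cells and the ratio could rise further. Neurl3 and Fhl2 were together in 41 cells against 31.7, a ratio of 1.29. Fhl2 was seen in 42.7% of the cells with Neurl3 (32.7 to 53.2), against 33.0% expected. In GnRH cells both pairs with Neurl3 were thus found together more often than expected in number, with the expected share near the lower end of the interval, and 96 cells do not settle whether they exceed independence. Vehicle cells had only 2 cells of each pair, against 3.69 expected for Coq10b with Neurl3 and 1.18 for Neurl3 with Fhl2.

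Among the 379 partner genes with at least 100 UMIs in GnRH cells, the ratio of Coq10b with Neurl3 ranked 2 among the partners of Coq10b, whose middle 90% ran from 0.957 to 1.03. Among the partners of Neurl3 the same pair ranked only 97, since ratios with a rare gene scatter widely (0.738 to 1.29). Neurl3 and Fhl2 ranked 2 among the partners of Fhl2 and 18 among those of Neurl3. Coq10b with Fhl2 ranked 148 and 190. Each rank is a description over genes that share the same cells and library. Neurl3 met the minimum with 110 UMIs in GnRH cells and had 13 in vehicle cells.

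**Figure D4:**
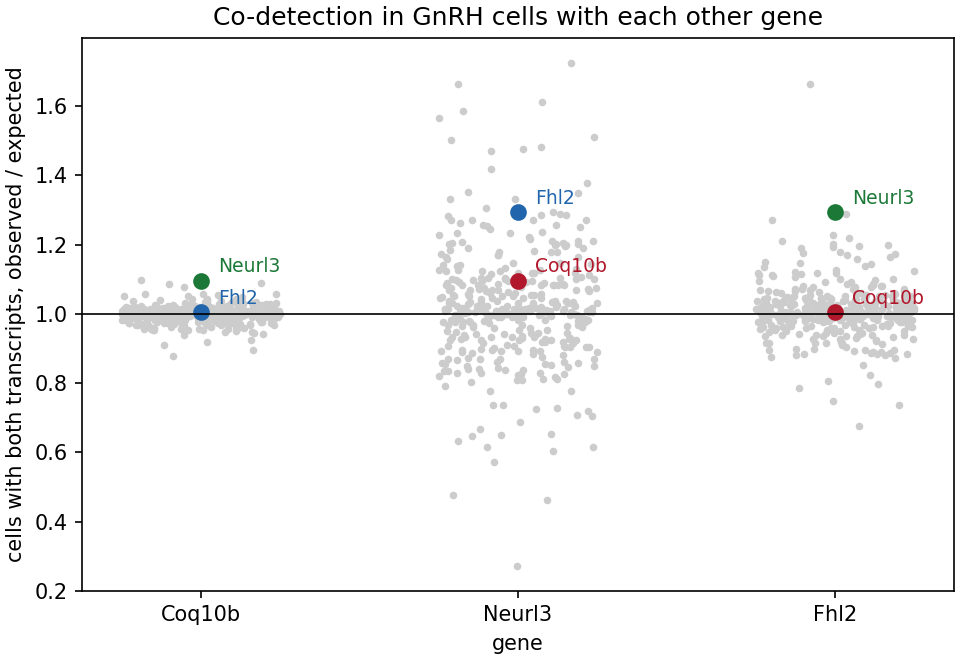
GnRH cells with both transcripts, observed over expected (vertical axis), for Coq10b, Neurl3 and Fhl2 (horizontal axis) with each of 379 other genes (grey points, spread sideways for visibility). Coloured points are pairs among the 3 genes, at 1.01 for Coq10b with Fhl2, 1.10 for Coq10b with Neurl3 and 1.29 for Neurl3 with Fhl2.

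The level of each gene was followed in GnRH cells ordered by Btg2 per UMI and divided into 4 groups of 472 or 473 cells, with medians of 2, 10, 20 and 34 Btg2 UMIs. These groups are ranges of a continuous measure and not cell types. Coq10b went from 1485 CPM in the group with least Btg2 through 2200 and 3281 to 4880 in that with most. Neurl3 had 24.0, 73.1, 95.3 and 195 CPM, from 6, 21, 29 and 54 UMIs. Fhl2 had 432 CPM in the lowest group and 748, 681 and 696 in the others. Coq10b was therefore higher in each successive group, with intervals that did not overlap. Neurl3 showed the same order, although the intervals of its first 3 groups overlapped from each to the next, whereas Fhl2 was lower in the first group and had overlapping intervals in the other three.

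With totals that omitted Btg2, the log2 ratio of the highest over the lowest group was 3.10 for Neurl3 (1.89 to 4.61), 1.80 for Coq10b (1.63 to 1.97) and 0.77 for Fhl2 (0.42 to 1.12). They ranked 1, 2 and 14 of 379 genes, whose median was 0.0017 and whose middle 90% ran from -0.50 to 0.51. For this ranking Neurl3 met the minimum of 100 UMIs in GnRH cells with only 110. Of these, 54 lay in the highest group and 6 in the lowest, so its rank rests in part on the counts that admitted it. Genes that were not higher in the GnRH library also followed Btg2 among GnRH cells. Akr1cl ranked 3 at 1.66, Tns1 was at 0.97 and Kcnb2 at 0.90, all above Fhl2, while their GnRH over vehicle log2 ratios were -0.23, -0.16 and -0.02. These 3 genes were chosen for this comparison after their values were seen. The intervals of Coq10b and Fhl2 did not overlap. Median UMI totals of the 4 groups were 506, 588.5, 607.5 and 551.5, so the group with least Btg2 was also the shallowest. The cells and the library are shared by all these genes, and the part of depth and cell quality in the order was not tested.

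**Figure D5:**
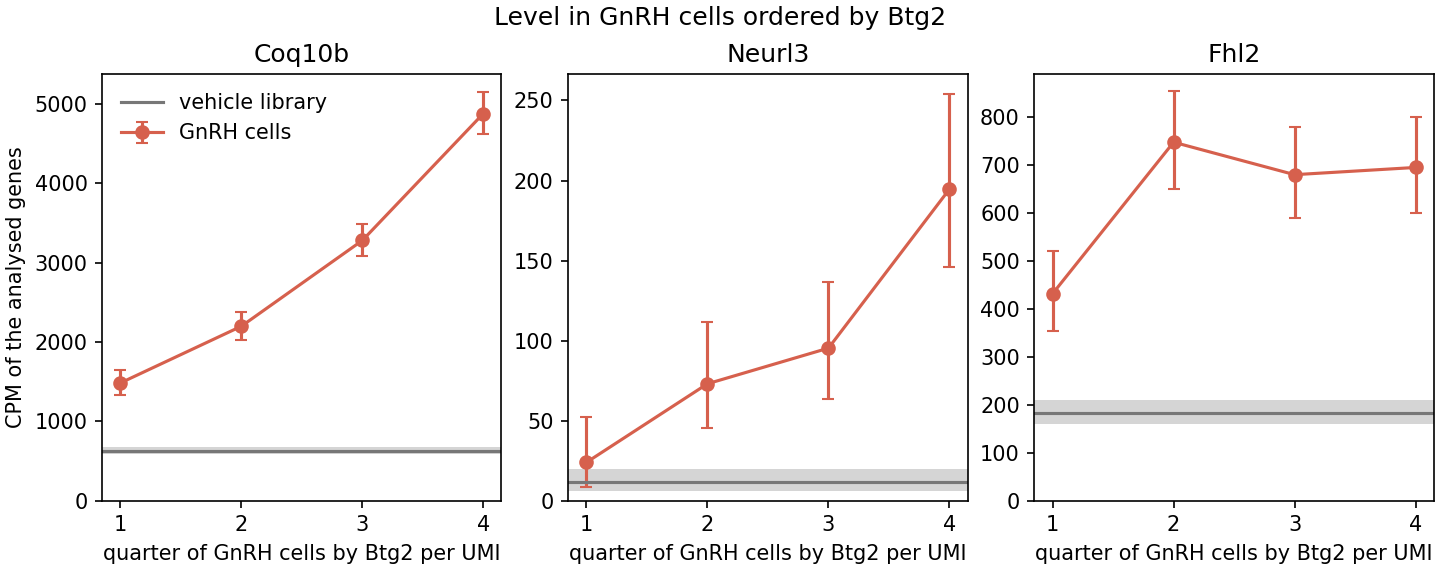
CPM of the analysed genes (vertical axis, a different range in each panel) in 4 groups of GnRH cells from least (1) to most (4) Btg2 per UMI, with 95% Poisson intervals. The grey line and band are the level and interval of the whole vehicle library. Coq10b goes from 1485 to 4880 CPM, while Fhl2 levels off after the first group.

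Within these groups, the variation of Coq10b was nearer to the counting expectation than over all GnRH cells. Its squared CV ratio was 1.02, 1.25, 1.15 and 1.13 from the lowest to the highest group, against 1.43 in all of them, although part of any such difference follows from the lower means of the first groups. Fhl2, at 1.29, 1.28, 1.47 and 1.23, kept about the variation it had over all cells, 1.34.

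A limited number of GnRH cells had little Btg2. Among the 262 with at most 2 Btg2 UMIs, Coq10b was at 1334 CPM (1127 to 1569) and Fhl2 at 402 (292 to 540), both above the intervals of the vehicle library (584 to 678 and 160 to 211). Neurl3 had 2 UMIs in them, or 18.3 CPM (2.21 to 66.0), which does not separate it from its vehicle level. These cells were shallow, with a median of 436.5 UMIs, and 112 of them had exactly 2 Btg2 UMIs, next to 98 cells with 3 just outside. Whether free RNA from other GnRH cells contributed to these levels was not tested.

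In vehicle cells the order by Btg2 was not seen for Coq10b, which was at 560 CPM in the 634 cells with Btg2 and at 671 in the 1358 without, a log2 ratio of -0.26 (-0.49 to -0.03). Cells in which Btg2 is detected tend to be deeper, whereas the GnRH cells were grouped by Btg2 per UMI, and the number of vehicle cells with both transcripts given depth was 0.900 times that expected, with an interval of 0.793 to 1.01 that includes 1. The interval of the log2 ratio for Fhl2, from -0.15 to 0.68, included 0. Neurl3 had 7 UMIs in the former and 6 in the latter cells, 17.0 and 8.42 CPM, a log2 ratio of 1.01 with an interval of -0.79 to 2.86 that leaves its direction undetermined. The totals here omitted Btg2. In GnRH cells, Fhl2 showed little dependence on Coq10b, at 604, 622, 679 and 676 CPM in cells with 0, 1, 2 and at least 3 Coq10b UMIs, with overlapping intervals. Neurl3 was at 54.5 (29.8 to 91.5), 49.2, 106 and 165 CPM (126 to 214) in the same cells, and the intervals of the first and last of these groups did not overlap.

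Across the 1889 GnRH cells, the genes with patterns most like each of the 3 were ranked by the correlation of residuals left after the UMI total was accounted for. The cells share 1 library, and these values are a description. For Coq10b they were Btg2 (r = 0.464), Ptprn (0.209) and Khdrbs2, an RNA-binding splicing regulator (0.120). For Neurl3 they were Btg2 (0.147), Akr1cl, a member of the aldo-keto reductase family (0.132), and Etnk2, an ethanolamine kinase (0.102), followed by Coq10b (0.098). For Fhl2 they were Cntnap5a, a neurexin-family membrane protein (0.133), Fn1 (0.125) and Klf7 (0.109). Btg2 was the first partner of both Coq10b and Neurl3 and was not among the first 3 of Fhl2, and Coq10b and Fhl2 had a correlation of 0.004 with each other. Apart from Btg2 with Coq10b and Ptprn with Coq10b, all of these values were weak, below 0.2.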

How the data were processed

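LβT2 cells treated with vehicle or GnRH gave 1 single-cell library each (10x Genomics 3′ chemistry v2). The authors deposited raw UMI counts per gene and called cell. The submitters' processing notes name Cell Ranger 1.3 and mm10, while the annotation and use of strand were not given in the sources used here. The table analysed held 1068 genes, or 3.81% of the 27998 listed, and 1 incomplete row was left out. Totals and CPM refer to these genes and are not the depth of the libraries.

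Groups followed the labels. UMIs were summed per library with no pseudocount. Intervals (95%) were exact Poisson for sums, Clopper-Pearson for shares (for joint detection, the share of cells with the rarer gene) and exact conditional binomial for ratios, and exclude any error besides counting. No test was possible with 1 library in each group, and cells were not treated as replicates. The 2-fold line applied to genes with at least 100 UMIs. A floor of 3 counts applied to sums of 0. Variation, models and co-detection were computed given each cell's UMI total, co-detection within 10 depth strata and for pairs with at least 5 expected cells where ranked. Misplaced cells are the sum of positive differences between observed and expected numbers. Code was tested on simulated data. No doublet caller was run, and the 5% of cells with most UMIs were left out as an alternative. Other alternatives were TMM scaling (edgeR 4.0.16), other scalings, minimums of UMIs and thinning to 300 UMIs. Positions came from GENCODE M21 (GRCm38) and promoters from RefSeq (GRCm38.p6), matched by symbol for 3 of 3 genes. Python 3.11.15, scipy 1.17.1 and R 4.3.3 were used.

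Named genes were the 3 genes, Btg2, the 3 most like each, the 3 nearest on each side and listed functional groups. Ptprn and 2810459M11Rik were named for their place beside the 2-fold line, and Kcnb2, Tns1 and Akr1cl in the order by Btg2, after their values were seen. The members and the lists were chosen with earlier results of these data known.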

Additional observations from a re-analysis of the deposited data

How the results depend on the processing

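No paired analysis was possible because only 1 library represents each arm. Over 35 results and 123 alternative values, 102 stayed, 21 moved and 0 reversed. To stay meant to lie within the counting interval for ratios, shares, means per cell and joint detection, and within 1.5 times the value for counts of genes, variation, fitted shares and correlations, where variation had also to keep its side of 1.5. TMM scaling gave log2 ratios of 2.34 for Coq10b, 3.18 for Neurl3 and 1.91 for Fhl2. In the shallowest of 3 depth groups of cells the ratios were 2.39, 2.02 and 1.55, and Fhl2 reached 2.06 in the deepest group. Thinning to 300 UMIs lowered the vehicle and GnRH shares to 16.9% and 54.3% (Coq10b), 0.267% and 2.58% (Neurl3) and 5.18% and 16.2% (Fhl2), as fewer UMIs per cell must. Cells with both transcripts over expected came to 1.18 for Coq10b with Neurl3 and 1.07 for Coq10b with Fhl2 when depth was ignored, and to 1.26 for Coq10b with Neurl3 after thinning. Without cells under 300 UMIs the Coq10b vehicle share was 30.6%. The squared CV ratio of Coq10b in GnRH cells was 1.79 against a plain Poisson expectation, which ignores cell totals, and 1.51 without the deepest 5% of cells, for which the cause was not tested. Genes at least 2-fold higher numbered 9 with a minimum of 20 UMIs and 22 with no minimum, and those lower numbered 1 and 14, where counts are few. Cells with more than 2 Btg2 UMIs over the others, an alternative chosen after seeing the data like all those on Btg2 groups, gave a Coq10b log2 ratio of 1.30.

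The sparse counts limit Neurl3 most, with 13 vehicle UMIs, so its form of induction and its joint detection with the other genes could not be resolved. The analysed genes are a small share of each transcriptome, so UMI totals per cell are only a partial measure of depth. Without replicate libraries, no value here has an error beyond counting.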
